A study of Mus musculus with 4 samples.

Results

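Glomerular endothelial cells line the capillary tuft in which the kidney filters blood, and 357 cells were chosen as such from 10535 sequenced mouse kidney cells. A cell was first gated as endothelial when the pan-endothelial genes Pecam1, Cdh5, Kdr and Tie1 together had at least 3 UMIs (molecule tags that count captured transcripts once each) and at least 12 per 10000 UMIs of the cell, which kept 2885 cells. A gated cell became a member when the summed UMIs of Plat, Pi16 and Ehd3, called the marker sum below, were at least 2. The marker sum also had to exceed each of 4 sums of 3 genes for peritubular (Igfbp3, Npr3, Esm1), arterial (Fbln5, Gja4, Sema3g), medullary (Cryab, S100a4, Kitl) and venous (Ptn, Sema3d, Vcam1) endothelium. The members were chosen on these 19 genes, whose values are therefore given as a description. The like rule named 1365 peritubular, 624 medullary, 109 arterial and 72 venous cells.

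The endothelium of the glomerulus is a very flat, fenestrated cell layer on a basement membrane that it shares with podocytes. It depends on VEGF-A, which podocytes supply and which acts through the receptor encoded by Kdr. Mature glomerular fenestrae mostly lack the diaphragm protein encoded by Plvap, whereas the fenestrae of peritubular capillaries carry it, so Plvap separates the 2 capillary beds. Plat encodes tissue plasminogen activator, Pi16 a secreted peptidase inhibitor-like protein and Ehd3 a protein of endocytic membrane recycling.

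The mice were C57BL/6J animals aged 10 to 14 weeks in 4 groups. Angiotensin II hypertension had a saline control, and salt-sensitive hypertension had a control on a normal diet. Kidneys were pooled within a group, and dissociated cells were selected with antibodies to CD31 (the product of Pecam1) and then to podoplanin before droplet capture with a 3′ kit. Each group is therefore 1 library of pooled animals, no difference between groups could be tested, and every interval below covers counting error only. The 2 control libraries are in 1 table that does not tie them to a model, so they were summed as 1 common control.

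The angiotensin II library held 97 members among 1223 gated cells of 2837, and the salt-sensitive library held 239 among 1517 of 3284. The control libraries held 21 members among 145 gated cells of 4414, of which 2 came from one library and 19 from the other. Sets of 3 values below follow the order angiotensin II, salt-sensitive, controls. Gated cells were 43.1%, 46.2% and 3.29% of all cells, so the control values rest on few cells. Members had medians of 4573, 2692 and 3060 UMIs, and together 404913, 674734 and 57037 UMIs. Between libraries 0 to 2 cell barcodes were shared, and none of them belonged to a member.

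Glomerular cells made up 7.93% of the gated cells under angiotensin II (6.48 to 9.59, a 95% exact binomial interval), 15.8% under salt-sensitive hypertension (14.0 to 17.7) and 14.5% among controls (9.19 to 21.3). The angiotensin II interval lay below the salt-sensitive one. The control interval overlapped both, which does not settle whether either share differs from that of the controls. At a marker sum of 10 or more the angiotensin II interval (2.42 to 4.52) lay below that of the controls (6.44 to 17.3). The angiotensin II table is not the only record of that library, because a further table joins both hypertension libraries. It holds 154 angiotensin II cells that the library's own table lacks, with a median of 6146 UMIs against 1429 in the cells that both tables hold, and 42 of them (27.3%, 20.4 to 35.0) met the rule against 3.37% (2.73 to 4.12) of the cells in both. With the joined table the angiotensin II share was 10.0% (8.46 to 11.7). At a marker sum of 10 or more it was 5.53% there (4.37 to 6.89), and this interval overlapped that of the controls (6.44 to 17.3). Likewise, 4 of 22 further salt-sensitive cells in the joined table (18.2%, 5.19 to 40.3) met the rule. The cells held by both tables had 88.4% of their own-table UMIs in the joined table for angiotensin II, and 100.5% for salt-sensitive hypertension. The antibody selection and the tables' choice of cells can set such shares, and their part in the difference was not tested.

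**Figure D1:**
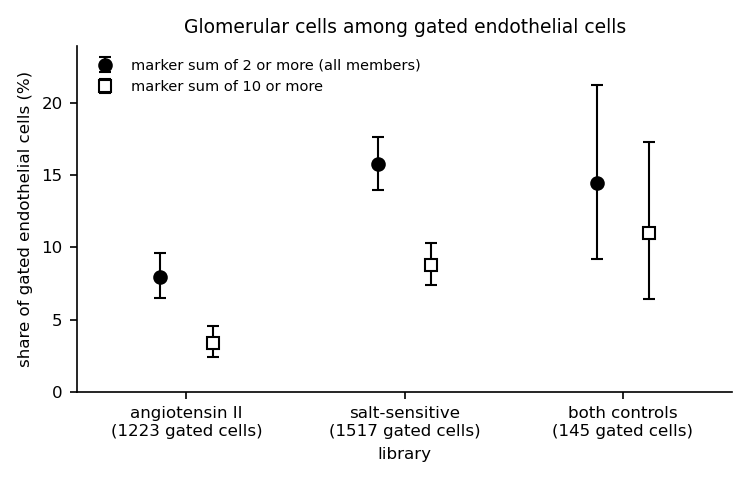
Share of gated endothelial cells (%) that met the glomerular rule in each library (filled circles, marker sum of 2 or more) and that had a marker sum of 10 or more (open squares). Bars are 95% exact binomial intervals. The angiotensin II points, at 7.93% and 3.35%, lie below the salt-sensitive points at 15.8% and 8.77%, and the control bars are wide because only 145 cells were gated.

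The members were not 1 uniform population. Cells with a marker sum of 10 or more carried hardly any Plvap, while many cells with a sum of 2 to 9 carried it at levels nearer those of peritubular cells. In the angiotensin II library 42 of 56 members with a sum of 2 to 9 had 3 or more Plvap UMIs, against 3 of 41 with a sum of 10 or more. In the salt-sensitive library the same counts were 32 of 106 and 0 of 133, and in the controls 3 of 5 and 0 of 16. As UMIs per 1000000 of all UMIs of the cells (library CPM), Plvap stood at 2531, 1073 and 2512 below a sum of 10 and at 338, 11.4 and 22 from 10 up, beside 3281, 2301 and 3085 in peritubular cells. Of the members with 3 or more Plvap UMIs, 42 of 45, 32 of 32 and 3 of 3 had a low sum, but in the salt-sensitive library 63 of the 106 cells with a low sum had no Plvap UMI.

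**Figure D2:**
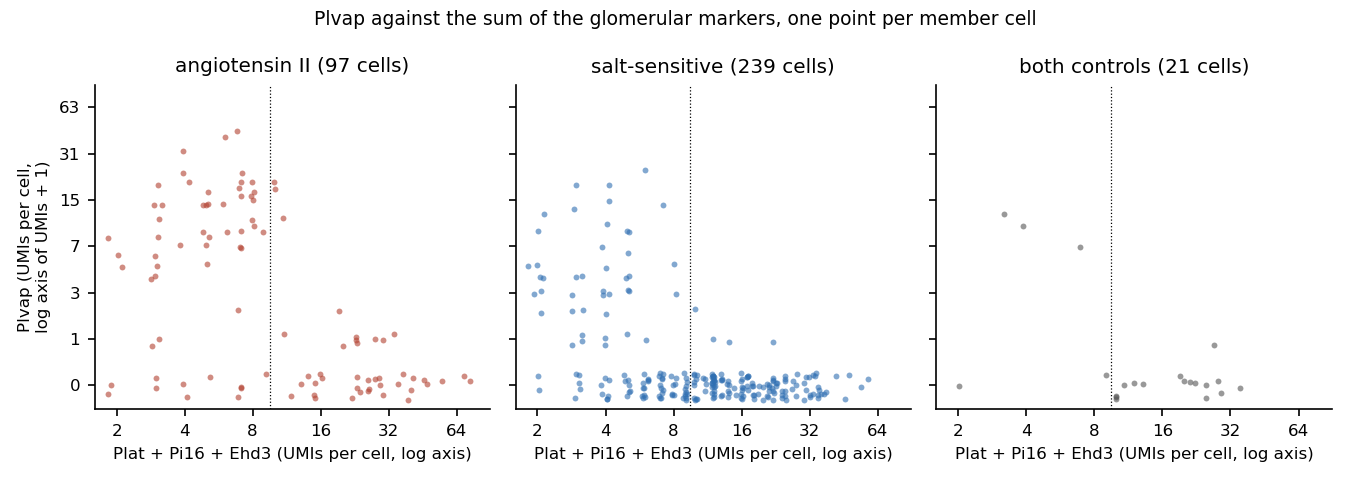
Plvap UMIs per cell (log axis of UMIs + 1) against the sum of Plat, Pi16 and Ehd3 UMIs (log axis) for each member cell, with small random shifts to separate points and a dotted line at the border between sums of 9 and 10. Left of the line 42 of 56 angiotensin II cells had 3 or more Plvap UMIs, and right of it 3 of 41 did.

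Several markers outside the rule followed the same division in the hypertension libraries. Lpl, the lipoprotein lipase gene and 1 of the markers given for these cells, went with the sum from 43.4 to 355, from 136 to 532 and from 0 to 725 library CPM. Gata5, a transcription factor of the glomerular endothelium, stood at 4.34 against 160 under angiotensin II and at 72.4 against 125 under salt-sensitive hypertension, and its control value is not analysed here. Tbx3, another transcription factor, went from 122 to 493, from 349 to 530 and from 86.6 to 374. Nostrin, which encodes an adaptor that moves endothelial nitric oxide synthase away from the membrane, went from 113 to 264 and from 238 to 361 in the hypertension libraries, but from 433 to 242 in the controls. Sost, another gene of the glomerular list, went the other way under angiotensin II, from 86.8 to 57.3, and from 4.26 to 116 under salt-sensitive hypertension. Emcn, a sialomucin gene of capillary and venous endothelium, went from 3898 to 4257, from 2844 to 3821 and from 2425 to 5034. The strata above and below 10 are cut from the genes of the rule, so this is a description of the cells that the rule takes in. Of the members, 42.3%, 55.6% and 76.2% had a sum of 10 or more, which were 3.35% (2.42 to 4.52), 8.77% (7.39 to 10.3) and 11% (6.44 to 17.3) of the gated cells.

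Cells just outside the rule looked unlike the members with high sums. Just inside it, members with a sum of exactly 2 had Plvap at 2024 library CPM under angiotensin II and 2142 under salt-sensitive hypertension. A further 574 angiotensin II, 373 salt-sensitive and 38 control cells had a marker sum of at least 2 that was tied with or below another sum. Their Plvap stood at 3121, 1353 and 2881 library CPM and their Lpl at 4.1, 19.9 and 35.2. Only 2, 8 and 1 gated cells had a marker sum of 1 above all other sums. Because a low sum takes in Plvap-rich cells, and more of them in the angiotensin II library, the main values below are also given for members with a sum of 10 or more, a set chosen after the data were seen.

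The label fitted the members with a sum of 10 or more on the markers outside the rule, and most angiotensin II members with a lower sum went against it. Those 56 cells had Plvap near the peritubular level, Lpl in 12.5% of cells, and Nostrin at 113 against 101 library CPM in the other gated cells. In UMIs per 1000000 over the 11049 genes that all library tables list (CPM, the scale of all levels from here on unless library CPM is named), Plat stood at 1910, 1859 and 2370, Ehd3 at 1138, 1688 and 2370, and Pi16 at 491, 1298 and 1264. These 3 genes chose the cells. The other 2 markers did not: Lpl stood at 180, 399 and 579 against 6.25, 23.7 and 34.3 in the other gated cells, and Nostrin at 180, 323 and 281 against 103, 70.4 and 150. Markers of other cells were low. Of the 484, 930 and 79 UMIs of the podocyte list, 356, 714 and 71 were Podxl, which endothelium also expresses, while the slit diaphragm gene Nphs1 (0, 3 and 0) was near the floor. Tubule markers summed to 1047, 1257 and 1525 library CPM, against 20181, 22353 and 21917 in cells that were not gated. The other gated cells had 874, 1676 and 2527, so in these sums only the angiotensin II members stood above theirs. In the control library that held 19 of the members, however, the members had 1592 against 1395 in its other gated cells. The macrophage list, of whose 10 genes the library tables list 5, 5 and 9, came to 12.3, 10.4 and 17.5 library CPM. C1qa and Csf1r were at 0 in all 3.

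A compact set of genes outside the rule stood out in the members of both hypertension libraries. Against the other gated cells of the same library, 182 of 10126 genes with 20 or more UMIs were at least 2-fold higher in the angiotensin II members (1.8%) and 229 lower (2.26%). In the salt-sensitive library these were 216 (2.12%) and 348 (3.42%) of 10185, and in the controls 275 (6.54%) and 483 (11.5%) of 4202. In both hypertension libraries 84 genes were at least 2-fold higher and 48 lower of 9938 measured in both, and 154 and 220 when only members with a sum of 10 or more were set against the other gated cells. The 84, 48, 154 and 220 were counted over all measured genes, those of the rule included. This contrast was made by the rule, so it describes the cells and tests nothing. Log2 ratios are those of CPM + 5, so that changes of low genes come out smaller than they are, and their intervals are exact binomial intervals of the plain ratio.

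Lpl, at chromosome 8 from 68880491 to 68907448 in the mouse assembly GRCm38, had log2 ratios of 4.04, 3.82 and 3.89 and came first when genes were ranked by the smaller of the 2 ratios in the hypertension libraries. Adamts16, a secreted metalloproteinase gene on chromosome 13 (70727802 to 70841811), stood at 67.7, 72 and 123 CPM against 0.586, 3.04 and 3.12. Sema5a, a transmembrane semaphorin of the guidance family on chromosome 15 (32244810 to 32696341), stood at 135, 560 and 474 against 10.5, 29.7 and 15.6. The maternally expressed non-coding RNA Meg3 stood at 95.2, 88.6 and 52.7 against 1.17, 4.55 and 0, the control value resting on 3 UMIs. All 3 libraries placed these genes far above the other endothelium. Among the other leading genes were Casc4 (80.2, 138 and 211 against 4.88, 4.25 and 9.36), Prxl2a (100, 122 and 228 against 4.30, 9.41 and 6.24) and Tbx3os1, an RNA antisense to Tbx3 (105, 122 and 140 against 7.23, 12.5 and 9.36). Reads of Tbx3 and Tbx3os1 cannot be told apart where strand was not used in counting, and no label states a strand setting.

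Dkk2, Epha6 and Vegfa, which encode secreted or receptor proteins, were also among the 20 leading genes. Dkk2, an extracellular modulator of WNT signalling, had the most UMIs of them, at 1471, 1666 and 1352 CPM against 216, 336 and 300. Epha6, an ephrin receptor gene, stood at 454, 812 and 193 against 34, 183 and 28.1, and only 4.86, 39.5 and 4.64 in peritubular cells. Vegfa itself, the ligand for which podocytes are the main source, was detectable in the endothelial members at 100, 192 and 158 against 18.8, 37.9 and 18.7. The remaining leading genes were Erc2, Rgs6, Gimap3, Psd3, Gm6213, Fam81a, Ddit4l and Ccdc80. Rgs6 was the exception among them, since its control value of 35.1 CPM rested on 2 UMIs and stood at 34.3 in the other cells.

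Components of BMP signalling were higher in the members. Smad6, the inhibitory SMAD that BMP signalling induces, stood at 318, 485 and 649 CPM against 70.7, 88.3 and 74.9, and the ligand gene Bmp6 at 158, 309 and 351 against 33.4, 64.4 and 53.1. Of 18 genes of TGF-beta and BMP signalling with enough UMIs, 15 were higher than in the other gated cells in each hypertension library, with medians of 0.25 and 0.26 against 0.03 and 0.04 over all genes. In the controls 10 of 17 were higher, with a median of 0.26. Bmper, a secreted BMP-binding protein gene, stood at 60.1 and 45 in the hypertension libraries against 4.69 and 9.71, and its control value is not analysed here.

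Guidance genes and arterial markers were mixed as lists. Of the guidance list 9 of 18, 11 of 19 and 9 of 16 genes were higher than in the other gated cells (medians -0.08, 0.15 and 0.36), and of the arterial list 2 of 7, 2 of 7 and 2 of 4 (-0.65, -0.68 and -0.05). Ntn4, a netrin of basement membranes, stood at 606, 1103 and 965 CPM against 140, 284 and 153, and Efnb2, the ephrin ligand of arterial endothelium, at 742, 923 and 597 against 406, 423 and 403. Hey2, a Notch target, was at 22.6 and 40.5 in the hypertension libraries against 4.1 and 12.7, and Cx3cl1, which encodes a membrane-bound chemokine, at 180, 174 and 87.8 against 41.4, 44.9 and 43.7. Csf1, the macrophage growth factor gene, stood at 223, 243 and 246 against 88.9, 59.8 and 46.8. The gap-junction gene Gja1 ran the other way, with 15, 21 and 17.6 against 112, 111 and 156. It led the lower genes, which also included Btnl9 (195, 78 and 35.1 against 483, 395 and 356), Igf1 (82.7, 45 and 35.1 against 216, 112 and 119), Dipk2b, Gm12002, Ccdc85a, Chchd10, Zfp521, Arhgap18 and Stard13.

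Genes of antigen presentation and interferon response were lower in the members than in the other endothelium. Of the interferon-response genes, 3 of 32, 0 of 32 and 3 of 30 were higher than in the other cells. Their median log2 ratios were -0.26, -0.88 and -0.91, and -0.80, -1.20 and -1.15 for members with a sum of 10 or more. MHC class I genes had medians of -0.19, -0.81 and -0.68, and MHC class II genes of -0.15, -1.96 and -3.57. The angiotensin II medians for all members were nearest 0, and those of class I and class II moved to -0.69 and -2.78 with a sum of 10 or more. Genes of oxidative phosphorylation had medians of 0.04, 0.01 and -0.02, near those of all genes (0.03, 0.04 and -0.01).

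**Figure D3:**
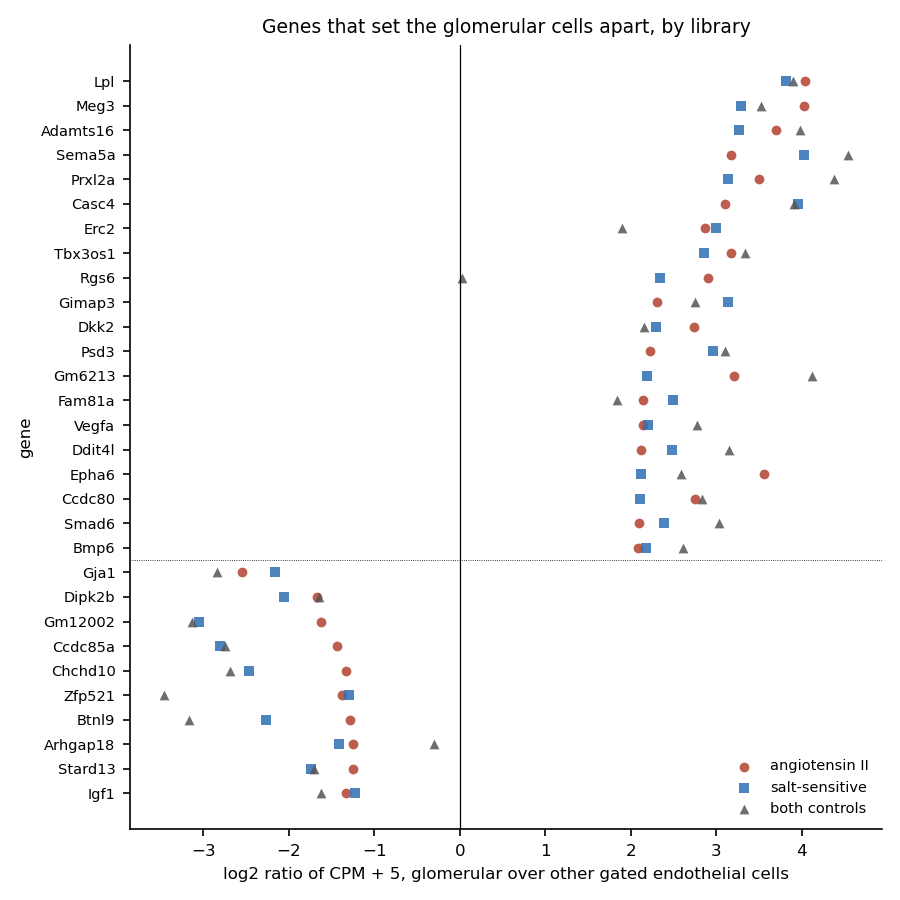
Log2 ratio of CPM + 5 in glomerular members over the other gated endothelial cells of the same library, for the 20 leading higher and 10 leading lower genes outside the rule, with 1 point per library. The 20 higher genes exceed 2 on the log2 scale in both hypertension libraries, and among them Rgs6 is the gene whose control point lies near 0 (0.028). Among the lower genes the control point of Arhgap18 lies nearest 0, at -0.30.

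By the share of cells with a UMI, the genes closest to the 3 markers among genes outside the rule were Adamts16 (10.1% of 357 members against 0.554% of 2528 other gated cells), Casc4 (21% against 1.5%), Prxl2a (23% against 1.98%) and Meg3 (8.12% against 0.712%). Next came Lpl (42.3% against 4.03%), Adamtsl5 (12.6% against 1.31%), Fam81a (12.9% against 1.34%) and Sema5a (40.6% against 4.47%). The likeness is the ratio of the 2 shares over the 3 libraries, which ran from 9.09 for Sema5a to 18.2 for Adamts16. In each hypertension library and in the controls each of the 8 was detected in a larger share of members than of other cells.

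The comparison of the hypertension models asked whether glomerular endothelium differed between angiotensin II and salt-sensitive hypertension. Genes of interferon response and of MHC class I and II were higher in the angiotensin II members, and single genes such as Sema5a, Atp13a3 and Hspa1b lower. Of 7616 genes with 20 or more UMIs, 259 were at least 2-fold higher in angiotensin II (3.4%) and 250 lower (3.28%). With an interval that also excluded 1, called below, these were 243 (3.19%) and 217 (2.85%). For members with a sum of 10 or more, 153 of 5867 genes were called higher (2.61%) and 184 lower (3.14%). In peritubular cells, of which there were many more, 48 of 9965 genes were called higher (0.482%) and 199 lower (2%).

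MHC class II genes led the higher genes, and they came from the Plvap-rich members. Cd74, the invariant chain gene, had 157 UMIs in 27 of 97 angiotensin II members and 19 in 12 of 239 salt-sensitive members, or 393 against 28.5 CPM (log2 ratio 3.57, interval 3.1 to 4.56). H2-Ab1 had 77 UMIs against 17 (193 against 25.5 CPM), H2-Aa 44 against 7, H2-Eb1 46 against 4 and H2-DMb1 23 against 3. In members with fewer than 3 Plvap UMIs Cd74 stood at 21.5 against 17.2 CPM, and at a sum of 10 or more it had 10 UMIs against 3. Peritubular cells held it at 393 against 173 CPM. The large ratio was thus seen over all members and not in those with little Plvap. After thinning each cell to 1000 UMIs, 18.1% of angiotensin II against 3.07% of salt-sensitive members had a Cd74 UMI, and 4.88% against 1.5% of those with a sum of 10 or more.

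Plvap, Rgcc and Slit3, which are high in peritubular endothelium, were also among the genes called higher. Plvap stood at 1609 against 386 CPM (log2 ratio 2.05, 1.85 to 2.27), and Rgcc, a cell cycle regulator gene that is high in peritubular endothelium (1322 against 966 CPM there), at 847 against 170 (2.29, 2.01 to 2.64). With a sum of 10 or more both remained higher, Plvap at 343 against 11.5 and Rgcc at 274 against 4.61. Of the 59 angiotensin II Plvap UMIs there, 18, 20 and 11 lay in 3 cells with sums of 10, 10 and 11. The 47 Rgcc UMIs came from 5 cells with 22 in 1 of them. Slit3, a secreted guidance ligand gene, stood at 130 against 21, and at 26.9 against 15.5 in members with fewer than 3 Plvap UMIs. Vegfc, the lymphatic growth factor gene, had 26 UMIs against 4, but 17 of the 26 lay in 1 cell and 21 in members with fewer than 3 Plvap UMIs. The peritubular marker list summed to 3786, 1487 and 1788 library CPM.

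MHC class I and its processing machinery were higher in the angiotensin II members at both thresholds. H2-K1 on chromosome 17 (33996017 to 34000347) stood at 2090, 906 and 1106 CPM, and at 1472, 748 and 814 with a sum of 10 or more, a log2 ratio between the models of 1.20 and 0.97. B2m, the light chain gene, stood at 3160, 1658 and 1562 (0.93 and 0.80), and H2-D1 at 3248, 1547 and 2001 (1.07 and 0.83). The immunoproteasome gene Psmb8 stood at 454, 189 and 351 (1.24 and 1.0) and Tapbp, the peptide-loading factor tapasin, at 263, 108 and 52.7 (1.25 and 1.02). In the list, 17 of 19 genes were higher with a median of 1.20 and 13 called, and 16 of 18 with a median of 0.90 and 6 called at a sum of 10 or more. The medians of all genes were -0.02 and -0.01. The exceptions in both sets were Calr (log2 ratio -0.48) and Pdia3 (-0.33), general chaperones of the endoplasmic reticulum. H2-Q7 (401, 88.5 and 70.2) and H2-Q6 (231, 55.5 and 87.8) also belong to near-identical families, so the assignment of their reads is uncertain. In peritubular cells the list's median was 0.46.

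Interferon-response genes showed the same order. Of 32 genes 31 were higher in the angiotensin II members, with a median log2 ratio of 0.95 and 15 called, and 21 of 26 with a median of 0.82 and 7 called at a sum of 10 or more. The peritubular median was 0.26 with 28 of 32 higher and none called. Iigp1, an interferon-inducible GTPase gene, had 141, 52 and 2 UMIs, with 35 of the 141 in 1 cell, or 353, 78 and 35.1 CPM. At a sum of 10 or more it stood at 244, 66.8 and 22. Irf7, a transcription factor that amplifies interferon responses, stood at 155, 40.5 and 70.2, Ifit1 at 120, 34.5 and 35.1 and Igtp at 80.2, 10.5 and 0. Rsad2, an antiviral enzyme gene, stood at 1250, 455 and 579 in all members, but only at 419, 263 and 396 with a sum of 10 or more. Trim30a was the 1 gene of 32 that was lower, at 226 against 317.

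The size of both group differences depended on which angiotensin II cells were counted. In the joined table, with a sum of 10 or more (74 against 133 cells), 16 of 18 class I genes were higher with a median of 0.49, and 21 of 28 interferon genes with a median of 0.31, against 0.03 for all genes. Over the 35 angiotensin II cells with such a sum that are in the joined table only, the medians were 0.19 for 17 class I genes and 0.32 for 24 interferon genes, against 0.01. Iigp1 kept a log2 ratio of 1.38 in the joined table (0.81 to 2.10) and of 1.29 in the cells found only there, and H2-K1 one of 0.54 and 0.37. Irf7 went to 0.86 in the joined table, with 15 UMIs against 10. Both medians were above that of all genes in each of these sets, and in the cells found only in the joined table the class I median was below the peritubular 0.46.

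**Figure D4:**
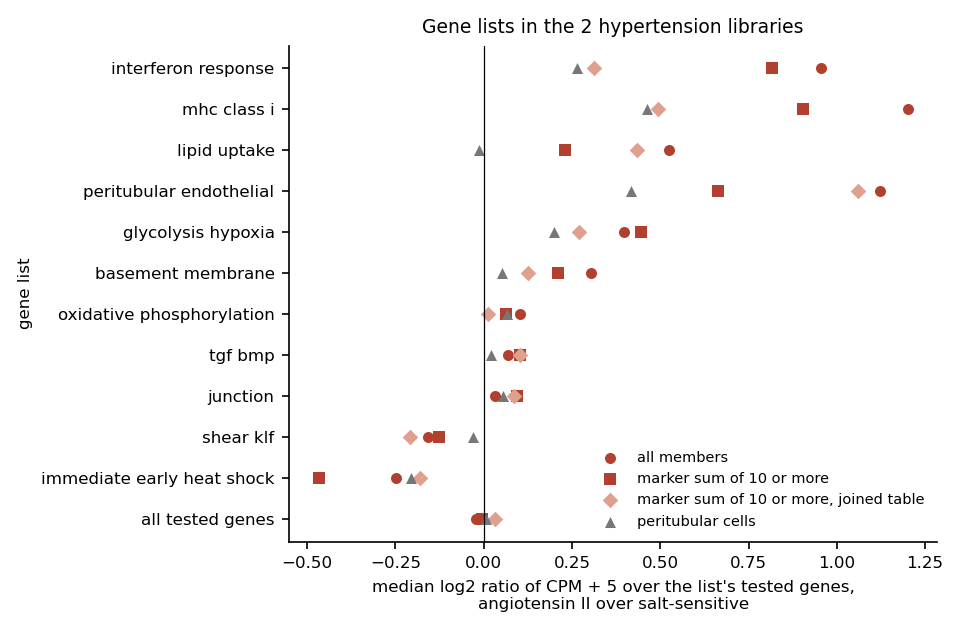
Median log2 ratio of CPM + 5, angiotensin II over salt-sensitive, over the genes of each list with 20 or more UMIs, for all members, members with a marker sum of 10 or more, the same in the joined table, and peritubular cells. The interferon list stands at 0.95, 0.82, 0.31 and 0.26 in these sets, and all genes lie near 0.

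Several genes differed between the models in members with a sum of 10 or more, named after their values were seen. Fabp4, a fatty acid binding protein gene of capillary endothelium on chromosome 3 (10204088 to 10208576), stood at 1263, 465 and 550 CPM in that set (log2 ratio between the models 1.43, 1.16 to 1.72), at 0.94 in the joined table and at 1.21 in the cells found only there. In all members it stood at 4842, 1691 and 1229, and in peritubular cells the ratio was -0.18. Klf4, a transcription factor induced by laminar flow, on chromosome 4 (55527143 to 55532466), ran the other way with 105, 401 and 198 CPM (-1.89, -2.72 to -1.23), -1.73 in the joined table and -1.61 in the cells found only there, while the peritubular ratio was 0.17. In cells thinned to 1000 UMIs, 2.44%, 21.8% and 12.5% of the members of that set had a Klf4 UMI.

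Several heat shock genes were lower in the angiotensin II than in the salt-sensitive members. Of the list of immediate early and heat shock genes, 8 of 21 were higher with a median of -0.25 and 1 called lower over all members, and 5 of 19 with a median of -0.47 and 3 called lower at a sum of 10 or more. The 1 of 21 is near the background share of 2.85%. Hspb1, a small heat shock protein gene, stood at 576, 1131 and 682 CPM with a sum of 10 or more (-0.97 between the models, and -1.22 in the joined table), and Hsp90ab1 at 1362, 2379 and 1276 (-0.80). Hspa1b had 5 UMIs against 74 and 0 in the controls, although it and Hspa1a are near-identical copies. Peritubular cells had log2 ratios of -0.96 for Hspb1 and -0.75 for Hsp90ab1, so these 2 differences were of like size outside the glomerulus. Hspa1b had a peritubular log2 ratio of -0.98, against -1.84 in all members and -2.36 at a sum of 10 or more.

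Edn1, which encodes the vasoconstrictor endothelin-1, gave ratios that depended on which cells were counted. With a sum of 10 or more it stood at 215 CPM under angiotensin II and 43.8 under salt-sensitive hypertension (log2 ratio 2.18, 1.46 to 3.18), and none of its UMIs was found in the controls, but 15 of 37 UMIs lay in 1 cell. In the joined table the ratio was 0.54 (-0.24 to 1.40), and in the 35 cells found only there it was -2.01 with 2 UMIs against 26. All members gave 115 and 84 CPM (0.43). Cd93, a C-type lectin receptor gene, stood at 175 and 34.5 (2.18), at 1.07 in the joined table and at 0.49 in the cells found only there.

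**Figure D5:**
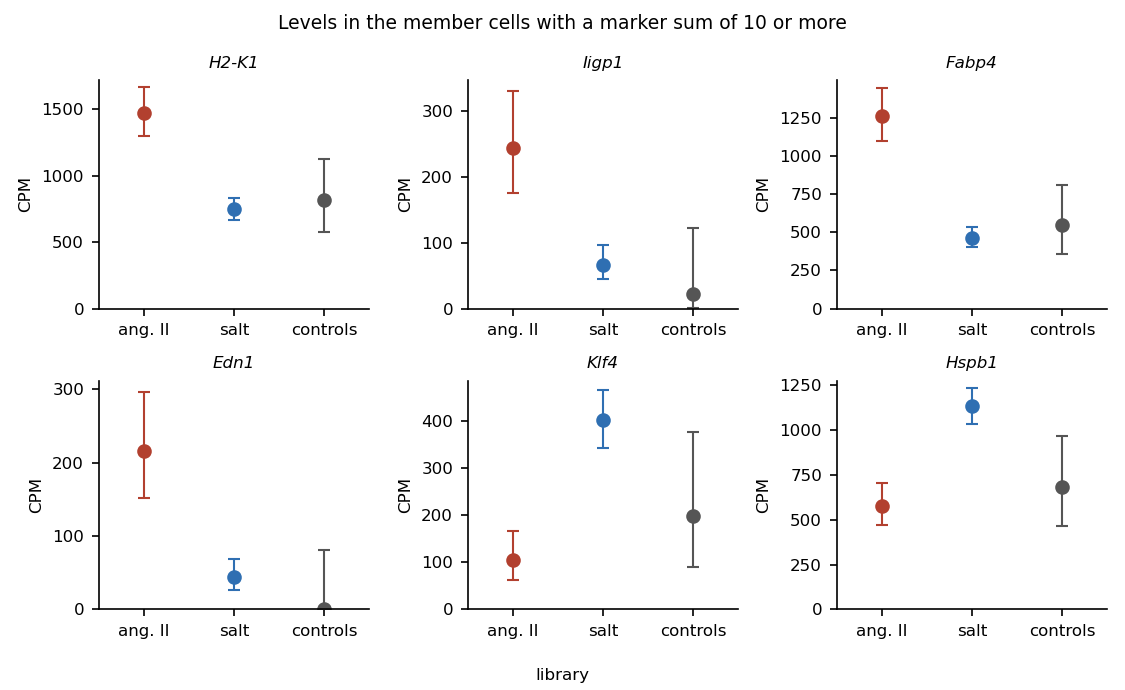
Levels (CPM over shared genes) of 6 genes in members with a marker sum of 10 or more in the angiotensin II (41 cells), salt-sensitive (133 cells) and control (16 cells) libraries, with 95% exact Poisson intervals for counting error. H2-K1, Iigp1, Fabp4 and Edn1 are highest in the angiotensin II library, and Klf4 and Hspb1 in the salt-sensitive library.

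The genes that were lower in the angiotensin II members included some of those that mark the cells. Sema5a stood at 135 against 560 CPM (-2.01, -2.49 to -1.63), at 279 against 725 with a sum of 10 or more (-1.36) and at -1.08 in the joined table. Erc2, an active-zone scaffold gene, stood at 125 against 390 (-1.60), at -0.90 with a sum of 10 or more and at -0.49 in the joined table. Atp13a3, a polyamine transporter gene on chromosome 16 (30312423 to 30405975), stood at 148 against 584 (-1.95), at 233 against 682 with a sum of 10 or more (-1.53) and at -1.37 in the joined table. Of these, Atp13a3 moved least between the sets. Abi3bp, an extracellular matrix protein gene, had 4 UMIs against 61, Runx1t1, a transcriptional corepressor gene, 5 against 49, and Coil, a nuclear body gene, 11 against 77. The non-coding gene Gm11867 had 0 against 39. With a floor of 3 counts in place of 0 it was 7.79-fold lower (upper interval bound of the log2 ratio -2.59). Hnf1aos1 had 2 against 42, and the peritubular log2 ratios of Gm11867 and Hnf1aos1 were -1.76 and -2.55. Tubule markers were lower in the same comparison, 0 of 10 being higher at a sum of 10 or more (median -0.94), 0 of 9 in the joined table (-1.25) and 1 of 15 in peritubular cells (-1.21), and their part in the lower genes was not tested. Map7, Uba6 and Ift88 had 1 UMI each against 25, 24 and 23.

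Calls in all members mostly kept their direction in the members with high sums. Of 240 called higher outside the rule, 113 had enough UMIs at a sum of 10 or more, 111 of them were higher there and 59 were called again. Of 215 called lower, 165 had enough UMIs, 165 were lower and 82 were called again. The sets share cells, so this measures the effect of leaving cells out. Over all 5867 genes at a sum of 10 or more, 2910 were higher and 2957 lower, with 2.61% called higher and 3.14% lower. In peritubular cells, which share none, 197 of 240 were higher and 15 called, and 173 of 210 were lower and 27 called. Over all 9965 peritubular genes, 5065 were higher and 4900 lower, with 0.482% called higher and 2% lower.

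The comparisons with the controls asked how each model differed from normotensive animals, and both rest on 21 control cells. Over control, 672 of 4926 genes were at least 2-fold higher in the angiotensin II members (13.6%) and 256 lower (5.2%), and 138 (2.8%) and 132 (2.68%) were called. For the salt-sensitive members these were 943 (14.8%) and 332 (5.2%) of 6387, and 106 (1.66%) and 115 (1.8%) called. At a sum of 10 or more, 316 of 2627 genes were at least 2-fold higher in angiotensin II (12%) and 113 lower (4.3%). Both ratios share the same control cells, so their values are given side by side. Since 19 of the 21 cells came from 1 control library, leaving out that library left 2 cells.

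Of the interferon list, 29 of 31 genes were higher over control under angiotensin II, with a median of 0.96 and 7 called, and under salt-sensitive hypertension 10 of 28 with a median of -0.23 and 2 called. The medians of all genes were 0.05 and 0.07. At a sum of 10 or more the interferon medians were 0.55 (15 of 16) and -0.18 (9 of 22). Heat shock and immediate early genes were higher in 14 of 19 cases in angiotensin II (median 0.39, 1 called) and in 17 of 19 in salt-sensitive members (0.63, 2 called). Hsp90ab1 stood at 1381, 2308 and 1194 CPM in the angiotensin II, salt-sensitive and control members, and Hspb1 at 855, 1186 and 649. Of 7 Notch pathway genes 5 were higher in angiotensin II (0.28) and 7 in salt-sensitive members (0.62), with Dll4, a Notch ligand gene of sprouting vessels, at 216, 167 and 87.8 CPM.

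Among single genes over control, Cd93 had 114 UMIs in 48 angiotensin II members and 0 in the controls. With a floor of 3 counts in place of 0 it was 5.43-fold higher, and 2.64-fold at a sum of 10 or more. The lower interval bounds of its log2 ratio were 2.12 and 1.02. Cd74 was 7.47-fold higher over all members with the same floor (lower interval bound of the log2 ratio 2.59), but had 10 UMIs against 0 at a sum of 10 or more. The latter gives no fold above the floor. Sparcl1, a matricellular protein gene, had 142, 180 and 2 UMIs or 356, 270 and 35.1 CPM in angiotensin II, salt-sensitive and control members (3.17 and 2.78). It was higher in both models to a like degree in peritubular cells (2.08 and 2.25). H2-Q7 stood at 401 against 70.2 CPM in the angiotensin II members and at 244 against 44 at a sum of 10 or more. Rflnb stood at 333 against 35.1, but at 128 against 44 at a sum of 10 or more (log2 ratio 1.44, -0.48 to 4.67), where it was not called, while 45 of 105 UMIs of Igfbp7 lay in 1 cell. In the salt-sensitive members Epha6 stood at 812 CPM against 193 in the controls, Ccnd1, which encodes cyclin D1, at 525 against 176, and Ube2h, Upf2 and Gatad1 at 197, 126 and 125 against 17.6, 0 and 0. Tgfb2, a TGF-beta ligand gene, had 91 UMIs against 0. With the floor of 3 counts it was 2.59-fold higher, and 1.26-fold at a sum of 10 or more. The lower interval bounds of its log2 ratio were 1.05 and -0.04, so it was not called at a sum of 10 or more.

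Of the vasoactive list, 6 of 10 genes were higher over control under angiotensin II and 5 of 10 under salt-sensitive hypertension (medians 0.13 and 0.0046), and 6 of 8 and 8 of 9 at a sum of 10 or more (0.82 and 0.22), and TGF-beta and BMP genes gave 9 of 17 and 7 of 18. A few genes named after their values were seen were higher in both models. Ece1, the enzyme gene that activates endothelin-1, stood at 466, 470 and 176 CPM, Ednrb, an endothelin receptor gene, at 241, 242 and 105, and Tgfbr2, a TGF-beta receptor gene, at 416, 395 and 176 (log2 ratios over control from 1.15 to 1.39). Ramp3, an adrenomedullin co-receptor gene, stood at 343, 174 and 87.8, of which the angiotensin II value dropped to 157 with a sum of 10 or more. Kdr stood at 1950, 2178 and 2071, Pecam1 at 1115, 1091 and 948 and Cdh5 at 789, 884 and 790, as genes of the gate. Among genes outside the rule Ramp2 (834, 809 and 860) and Mef2c (611, 606 and 579) lay close together in the 3 sums.

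Among the genes lower over control, several rested on a handful of cells. Cyp26b1, which encodes an enzyme that degrades retinoic acid, on chromosome 6 (84571414 to 84593908), had 20 UMIs in 11 angiotensin II members and 20 in 10 control members, or 50.1, 152 and 351 CPM with the salt-sensitive members between them. The log2 ratios over control were -2.69 (-3.78 to -1.84) and -1.19, and peritubular cells gave -2.78 and -1.14 with 65.4 and 478 CPM in the angiotensin II and control cells. All 20 control UMIs of Cyp26b1, 15 of Cldn5, 20 of Ezh1 and 11 of Rnf217 came from control library 2. The 2 members of the other control library had 0 UMIs of each. Without library 2 the pseudocount over 0 UMIs set the sign of the ratios, so they cannot show a direction. They were 3.46 for Cyp26b1 under angiotensin II and 3.37 for Cldn5 under salt-sensitive hypertension. Ezh1 gave 3.53 and 4.23 in the 2 models, and Rnf217 gave 3.28 in the salt-sensitive one. Cldn5, the tight junction gene of tight endothelia, stood at 46.5 against 263 in the salt-sensitive members (31 UMIs against 15, log2 ratio -2.38) and at 45.6 against 41.8 in peritubular cells. Sipa1l3 (175, 317 and 843 CPM) and Hecw2 (303, 599 and 983) were lowest in the angiotensin II members. For Ezh1 19 of 20 control UMIs lay in 1 cell, and for Gk5 all 11 did. Further named genes were Klk8 and Zfp715 in angiotensin II and Rnf217, Antxr2, Mettl16 and Arl5a in salt-sensitive members, each with 7 to 17 control UMIs.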

How the data were processed

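Mouse kidney cells were measured by droplet single-cell RNA sequencing in 4 libraries, 1 per group. The deposited tables hold counts of UMIs per gene and cell, made by the authors with Cell Ranger 7.0.0 and Seurat 4.1 on mm10, per the submitters' processing notes. Filters on cells and genes are not given in the sources used here. There are 4 tables: angiotensin II, salt-sensitive, both controls, and a table that joins the hypertension libraries, which served as an alternative.

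UMIs of member cells were summed per group, since cells are not replicates. Levels are UMIs per 1000000 (CPM) over 11049 genes common to the library tables. Ratios are of CPM with a pseudocount of 5, over genes with at least 20 UMIs in both sums together. A gene was called at a fold of 2 with a 95% exact binomial interval of the ratio excluding 1. A floor of 3 counts stood in for 0. With 1 library a group there is no test of a condition. PCR copies are removed by UMIs, and intervals cover counting error only. No doublet caller was run, and an alternative left out cells above the 95th percentile of depth. Cells were thinned to 1000 UMIs for shares of cells with a UMI.

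Named genes are the 12 that lead in each direction between the models, 8 in each direction over control, 20 higher and 10 lower against other gated cells, and 8 most alike by detection, plus list members; some of these are not reported here. Members and lists were chosen with earlier results of these data known. Coordinates are GRCm38 (10973 genes matched). The procedure was tested on simulated data with independent Poisson counts, which leave out the crowding of a gene's UMIs in single cells. Python 3.11.15, numpy 2.4.6, scipy 1.17.1, pandas 2.3.3 and matplotlib 3.10.9 were used.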

Additional observations from a re-analysis of the deposited data

Results flagged for a closer look

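Glomerular cells appeared in data that the comparisons of the library tables do not use. In the joined table, 42 angiotensin II cells and 4 salt-sensitive cells met the rule and were not in their library's own table. The 42 cells had a median of 5689 UMIs and 2783 genes, and 35 of them had a marker sum of 10 or more. Their Plvap stood at 802, Lpl at 291, Tbx3 at 493 and Gata5 at 152 library CPM (UMIs per 1000000 of all UMIs). No cell exceeded 2987 genes in the angiotensin II table, 2981 in the salt-sensitive table and 2987 in the joined one.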

How the results depend on the processing

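Of 686 alternative values of 56 named results, 624 stayed within the interval of the main result. A further 57 moved outside that interval on the same side, and 5 reversed to the other side. All 5 reversals came from leaving out control library 2, which left 2 control members with 0 UMIs of these genes. The pseudocount then set the sign, so these reversals cannot show a direction. They were Cyp26b1 (log2 ratio 3.46) and Ezh1 (3.53) for angiotensin II over control. For salt-sensitive over control they were Cldn5 (3.37), Ezh1 (4.23) and Rnf217 (3.28). Counts of genes at least 2-fold higher and lower depended on the settings. Between the models they were 112 and 82 with a pseudocount of 20, 111 and 105 with at least 50 UMIs, and 167 higher in thinned cells. For angiotensin II over control they were 1132 and 559 with at least 10 UMIs, 178 and 45 with at least 50, 144 and 64 thinned, 162 lower with a pseudocount of 20, 2481 and 978 without control library 2, 316 and 113 with a marker sum of 10 or more, and 330 and 127 without Plvap-rich cells, the last pair of settings chosen after seeing the data. For salt-sensitive over control they were 624 and 163 with a pseudocount of 20, 1590 and 643 with at least 10 UMIs, 343 and 67 with at least 50, 588 and 195 thinned, and 3731 and 1273 without control library 2. Against other gated cells, genes shared by both hypertension libraries were 49 and 17 with a pseudocount of 20, 93 lower in thinned cells, and 154 and 220 with a sum of 10 or more. The share of gated cells was 10.0% in the joined table for angiotensin II. With a sum of 10 or more it was 3.35% for angiotensin II (5.53% in the joined table) and 8.77% for salt-sensitive hypertension. Scaling by the median of ratios moved the median of all genes over control from 0.05 to 0.17 for angiotensin II and from 0.07 to 0.17 for salt-sensitive members. The cause of these moves was not tested. No paired analysis was possible because each group is 1 library.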
